A study of Mus musculus with 6 samples.

Results

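Joins without N bases were the immunoglobulin heavy-chain rearrangements in which no base lay between the aligned V and D segments or between the aligned D and J segments. They were chosen from all sequences with a D call as those with a V-D and a D-J insert length of 0, and 3134 of 228609 sequences met this. The inserts chose the members, so their lengths are a description. Members were set against 168082 joins with at least 1 inserted base at both junctions. The deposited lengths count untemplated N bases and palindromic P bases together, so "without N bases" here means that neither kind was seen.

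The spleen donors were C57BL/6 mice of 12 weeks, and their B cells, enriched by removing other cells with magnetic beads, gave the genomic DNA. VDJ-seq then read the rearranged V, D and J genes from this DNA rather than from RNA. In 4 libraries the DNA input was varied (500 ng, 1 µg, 2.5 µg or 5 µg), and a pair made with different DNA polymerases, Q5_vent and Q5_Q5, has no stated DNA amount. Each library was the only one of its group. Nothing in the labels says that the libraries came from separate animals or DNA, so p-values over the 6 libraries measure only the spread between them. The files hold Igh joins alone, so the cell type was not checked against marker genes.

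Heavy-chain genes are assembled by joining a D segment to a J segment and then a V segment to the DJ join. Nucleases trim the ends, and terminal transferase adds N bases that no template encodes. The enzyme is absent in fetal life, when joins often lack N bases and form where short germline stretches occur in both segments. B-1 cells, an innate-like population that arises largely in fetal and neonatal life, are known for such joins, and Ighv11-2 and Ighv12-3 are the V genes of the phosphatidylcholine-binding antibodies of these cells.

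The D and J ends below are of the first allele of each D gene and a further allele of Ighd4-1. They are shown because bases shared at the D-J junction are described further on. They are the commonest base at each position of the deposited alignments, with at least 5 sequences behind each base. In D segments capitals mark the 3′ end that also occurs near the start of Ighj1, and in J segments the stretch near the 5′ end that equals the end of Ighd1-1.
Ighd1-1: tttattactacggtagtagCTAC
Ighd2-5: cctactatagtaaCTAC
Ighd2-3: tctatgatggttaCTAC
Ighd2-4: tctactatgattacgAC
Ighd4-1: ctaactgggAC
Ighd4-1*02: caactgggAC
Ighj1: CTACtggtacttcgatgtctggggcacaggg
Ighj2: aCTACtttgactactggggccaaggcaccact
Ighj3: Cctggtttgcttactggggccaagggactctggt
Ighj4: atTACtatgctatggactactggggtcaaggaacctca

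The CDR3 of 8 member clones follows, where a clone is 1 combination of V gene, J gene and CDR3 bases. They were found in the most libraries, and then most often. Capitals mark the bases aligned to the D segment, the bases before them come from V and those after them from J. Bases that both segments hold are credited to V or J by the aligner.
Ighv12-3 to Ighj4, with Ighd4-1, productive: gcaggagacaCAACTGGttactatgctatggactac
Ighv11-2 to Ighj1, with Ighd2-5, productive: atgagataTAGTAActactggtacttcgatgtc
Ighv2-6-1 to Ighj1, with Ighd2-5, out of frame: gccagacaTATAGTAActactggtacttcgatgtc
Ighv10-1 to Ighj4, with Ighd2-5, out of frame: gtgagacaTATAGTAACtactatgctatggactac
Ighv11-2 to Ighj1, with Ighd1-1, productive: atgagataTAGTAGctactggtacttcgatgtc
Ighv12-3 to Ighj1, with Ighd2-3, productive: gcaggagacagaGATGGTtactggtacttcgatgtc
Ighv1-11 to Ighj2, with Ighd2-5, out of frame: ggCCTACTATAGTAactactttgactac
Ighv11-2 to Ighj1, with Ighd2-1, productive: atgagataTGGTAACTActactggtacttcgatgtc

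Joins without N bases made up a like share of every library. The 500 ng library held 120 of them, the 1 µg library 242, the 2.5 µg library 769 and the 5 µg library 1527, while Q5_vent held 263 and Q5_Q5 held 213. Their share of joins with a D call was 1.46%, 1.5%, 1.45%, 1.44%, 1.42% and 1.5% in that order. All 6 Wilson 95% intervals overlapped. Over the libraries together the share was 1.45% (interval 1.40 to 1.5), and it was 1.26% with 1 count per clone in each library. The V-D insert was absent in 9.23% and the D-J insert in 14.4% of joins with a D call, and the product of these shares is 1.33%. Just outside the rule lay 2431 joins with 0 V-D and 1 D-J inserted base, and 2899 with 1 and 0. Joins with no D call, 5.51% of all sequences, could not be classed.

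Libraries held 8704 to 112320 sequences. Median read support, inferred from sequence names, was 9 in members and in the comparison joins. A mismatch to germline within the last 10 aligned V bases was found in 6.64% of members, 7.18% of joins with N bases at the D-J junction only, 1.55% of joins with N bases at the V-D junction only and 1.63% of joins with N bases at both. An alignment that runs past the true V end can hide an inserted base, so results were also computed without these sequences. Inserted bases that happen to match germline cannot be seen in these files.

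J gene use separated the classes in every library. The J alignment bounds the D-J insert, so J use may be partly tied to the rule, which the p-values do not address. Ighj1, the J segment nearest to the D segments, rose, while Ighj2 and Ighj3 fell. Ighj1 ranged over the libraries from 32.2% to 39.2% of members (median 36.4%) and from 16.2% to 17.1% of joins with N bases at both junctions (median 16.5%). The ranges did not overlap. The mean difference within libraries was 19.7 ± 2.57 percentage points (SD, n = 6; higher in 6 of 6; adjusted p = 0.0417, exact two-sided sign-flip permutation test). With 6 libraries this test cannot give an unadjusted p below 0.03125, which is the value of every measure that moved one way in all libraries.

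Ighj3 ranged from 11.2% to 18.3% of members (median 13.4%) and from 25.1% to 27.5% of the comparison joins (median 25.8%), without overlap. Its difference was -12.3 ± 2.85 points (SD, n = 6; 0 of 6 higher; adjusted p = 0.0417, same permutation test). Ighj2 ranged from 19.4% to 27.3% (median 22.8%) against 28.6% to 32.8% (median 30.4%), also without overlap, and differed by -7.72 ± 3.58 points (SD, n = 6; adjusted p = 0.0417, same permutation test). Ighj4 overlapped between classes, at 26.7% in both over all libraries, and its difference of 0.335 ± 1.77 points did not pass the test (SD, n = 6; p = 0.656, exact permutation test). Of the 4 J genes, 25% were thus called higher and 50% lower. Put the other way, 2.81% of Ighj1 joins with a D call lacked N bases, 1.48% of Ighj4, 1.12% of Ighj2 and 0.785% of Ighj3 joins.

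**Figure D1:**
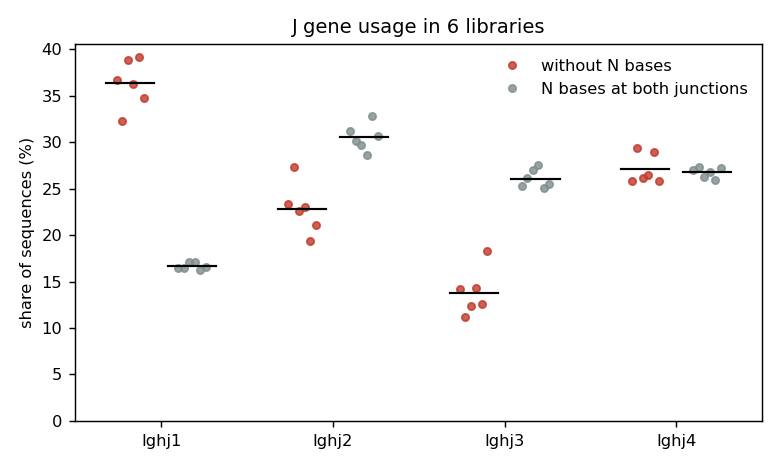
J gene shares (%, y axis) among joins without N bases (red) and with N bases at both junctions (grey); each point is 1 of 6 libraries and the black line is their mean. All 6 red points for Ighj1 lie above 32%, and all grey ones between 16.2% and 17.1%. For Ighj3 the order is turned, and for Ighj4 the classes overlap.

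The Ighj1 excess was also seen in joins that lacked an insert at the D-J junction alone. Ighj1 made up 30.3% of joins with N bases at the V-D junction only and 16.7% of those with N bases at the D-J junction only. Members still lay above the former, by 7.09 ± 2.69 points (SD, n = 6; 6 of 6; adjusted p = 0.0417, exact sign-flip permutation test). Over clones of a single library Ighj1 made up 31.0% of members, close to the 30.3% of the former over all its sequences. The contrast with joins with N bases at the V-D junction only was not tested without clones found in several libraries. Against the same class Ighj4 was higher by 6.41 ± 1.28 points and Ighj2 differed by -9.56 ± 3.46 points (both adjusted p = 0.0417, n = 6, same permutation test), while Ighj3 did not pass (-3.94 ± 2.53 points). In this contrast 50% of the J genes were called higher and 25% lower.

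The Ighj1 excess was smaller without clones found in several libraries. Among clones of a single library Ighj1 made up 31.0% of members (interval 29.2 to 32.8) and 16.8% of comparison joins. The mean difference there was 13.6 points, with an adjusted p of 0.0625 in the exact permutation test. Without Ighv11-2 and Ighv12-3 it was 15.5 points (adjusted p = 0.0625, exact permutation test). A quasi-binomial fit with the library as a block called 1 J gene higher and 2 lower in both settings. Among productive sequences Ighj1 made up 38.7% of members, and among non-productive ones 31.5%, against 17.6% and 15.3% of comparison joins.

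At the D-J junction most members joined where D and J hold the same bases. At least 1 shared germline base was found in 63.4% of members (Wilson interval 61.7 to 65.1) and at least 3 in 37.1% (35.4 to 38.8). In the 6 libraries at least 3 were found in 31.7% to 38.8%. In joins with N bases at the V-D junction only, which have the same D-J rule, the shares were 58.7% and 30.7%. Over clones of a single library they were 61.0% and 30.5% in members, and 58.2% and 30.2% in that class. These shares are given without a test, since overlap of aligned ends is tied to the rule.

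The share differed by J gene. At least 3 shared bases were found in 60.4% of Ighj1 members, 29.8% of Ighj2, 29.5% of Ighj4 and 1.63% of Ighj3 members. Ighj3 shares 1 base with the end of Ighd1-1, whereas Ighj1 and Ighj2 share 4 and Ighj4 shares 3. Among members with Ighd4-1, whose end shares 2 bases with Ighj1, none of 303 had 3 shared bases, which allows a share of up to 0.990%.

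**Figure D2:**
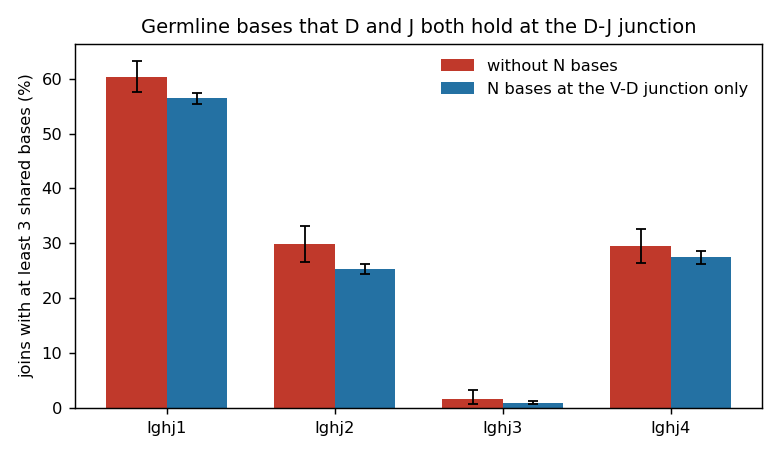
Share of joins with at least 3 germline bases held by both D and J at the D-J junction (%, y axis) for each J gene; red bars are joins without N bases, blue bars joins with N bases at the V-D junction only, and whiskers are Wilson 95% intervals over sequences. Ighj1 stands at 60.4% and Ighj3 at 1.63% in red, with blue bars close by.

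Single joints recurred with many V genes. Ighd1-1 ending at its base 19 and followed by Ighj1 from base 1, a joint over the 4 shared bases CTAC in the printed ends, was found in 304 members. These carried 80 V genes in 226 clones and were 59.6% of all Ighd1-1 to Ighj1 members. The same joint made up 61.8% of that pair in joins with N bases at the V-D junction only. Ighd2-5 ending at base 13 and followed by Ighj1 from base 1, over the same 4 bases, was found in 205 members. These carried 32 V genes in 41 clones and were 91.9% of the pair. Most were printed clones with Ighd2-5, 92 sequences of the Ighv11-2 clone and 65 of the Ighv2-6-1 clone. In joins with N bases at the V-D junction only, this joint made up 74.3% of the pair. Base 7 of the allele Ighd4-1*02 followed by base 2 of Ighj4 shares no base, and its 104 members were all the Ighv12-3 clone printed first.

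At the V-D junction sharing was less frequent. At least 1 shared base was found in 34.0% of members and in 31.4% of joins with N bases at the D-J junction only. By V family it was 84.0% for Ighv11 and 23.4% for Ighv1 in members, against 47.9% and 24.8% in the other class. Of the 187 Ighv11 members, 92 were the printed Ighv11-2 clone with Ighd2-5, which shares 2 bases at this junction. Counting both junctions, 2343 of 3134 members (74.8%) shared at least 1 base at 1 junction or both, and 791 (25.2%) shared none. Unrelated bases also match at times, and the share they would give is not known here. These values therefore do not show an excess of shared bases.

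D gene use is given as a description, because the D alignment itself sets the insert lengths. The V and J alignments each bound 1 of these lengths, so the tested V and J shares may also be tied to the rule. Ighd1-1, the longest and most used D segment, made up 40.3% of members and 39.8% of the comparison joins, and 44.7% of members without the 8 printed clones. Ighd2-5 made up 12.6% against 7.47%, a ratio of 1.68 (Katz interval 1.53 to 1.85), and was higher in 5 of 6 libraries. Of its 394 members 208 belonged to 4 of the printed clones, and without the 8 printed clones its share was 6.70%. Over clones of a single library it was 7.05% against 7.48%. Ighd2-4, whose printed end lacks the CTAC of Ighd2-5 and Ighd2-3, made up 6.41% against 14.5%, a ratio of 0.444 (0.388 to 0.508), and was lower in 6 of 6. Over clones of a single library it was still lower in 6 of 6, at 7.45% against 14.3%. Ighd2-3 made up 10.6% against 9.40%, and Ighd2-1 6.09% against 7.03%. D calls naming several genes were 37.3% of members and 43.2% of the comparison joins, so shares among near-identical Ighd2 genes are uncertain.

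By D family, Ighd1 made up 41.3% of both classes over all sequences. Over clones of a single library it was 45.2% of members and 41.5% of comparison joins, higher in 6 of 6 libraries. Without the 8 printed clones it was 45.7% against 41.3%. Ighd2 made up 42.1% of members and 45.9% of the comparison joins, and its ranges did not overlap. Ighd4, which has the single short gene Ighd4-1, ranged from 7.50% to 12.0% of members (median 9.53%) and from 6.07% to 6.61% of comparison joins, again without overlap. Of its 303 members 104 were the Ighv12-3 clone printed first. Without the 8 printed clones Ighd4 made up 7.17% against 6.26%, and over clones of a single library 6.97% against 6.27%, and in both the ranges over libraries overlapped. Ighd3 (5.78% and 5.65%), Ighd5 (0.479% and 0.366%) and Ighd6 (0.734% and 0.465%) overlapped.

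Productive members used the tyrosine-rich reading frame of D segments. With Ighd1-1 the frame whose codons start at base 3, which encodes mostly tyrosine, glycine and serine, was used by 82.9% of productive members (interval 80.4 to 85.2), 80.3% of productive joins with N bases at the V-D junction only and 69.4% of those with N bases at both. The frame that starts at base 1, which encodes hydrophobic residues and threonine, was used by 13.6%, 14.4% and 24.6% in that order. With Ighd2-5 the frame that starts at base 3 was used by 214 of 215 productive members and 98.3% of productive comparison joins. Tyrosine was 27.2% of CDR3 residues in productive members and 20.7% in the comparison joins, and glycine 6.89% and 9.99%. CDR3s with the full end that Ighj1 encodes were 30.9% against 11.7%.

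V gene use shifted away from Ighv1, the largest and mostly distal family. Ighv1 ranged from 31.7% to 37.6% of members (median 35.3%) and from 57.8% to 58.6% of comparison joins (median 58.2%), without overlap. The mean difference was -23.3 ± 2.02 points (SD, n = 6; adjusted p = 0.0455, exact sign-flip permutation test). Ighv1 made up 46.3% of joins with N bases at the D-J junction only and 57.6% of those with N bases at the V-D junction only.

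Of 16 families, 8 were called higher (50%) and 3 lower (18.8%) by the sign-flip test, all with an adjusted p of 0.0455. A quasi-binomial fit with the library as a block, used because sign flips over 5 libraries cannot pass, called 8 of 15 higher (53.3%) and 2 lower (13.3%), and did so again without each library in turn. Ighv11 ranged from 4.23% to 7.60% of members (median 5.82%) and from 0.404% to 0.564% of comparison joins. Ighv12 ranged from 4.69% to 10% (median 6.00%) against 0.720% to 0.831%. Over all libraries Ighv11 was 12.2-fold and Ighv12 7.99-fold higher in members, and neither range overlapped.

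The other higher families stood between these and Ighv1. Ighv10 made up 5.84% of members and 2.43% of comparison joins (2.41-fold), and Ighv7 3.0% and 1.34% (2.24-fold). Ighv6 made up 4.53% and 2.56%, Ighv2 9.16% and 5.48%, Ighv3 7.12% and 5.45%, and Ighv5 10.4% and 8.38%. These 6 families were higher in 6 of 6 libraries each, with ranges that overlapped for Ighv6 alone. Ighv9 was lower, at 2.68% and 3.94%, and Ighv15 passed the sign-flip test (9 members, 0.287% and 0.472%) but not the quasi-binomial fit (adjusted p = 0.131). Ighv4, Ighv8, Ighv13, Ighv14 and Ighv16 did not pass.

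**Figure D3:**
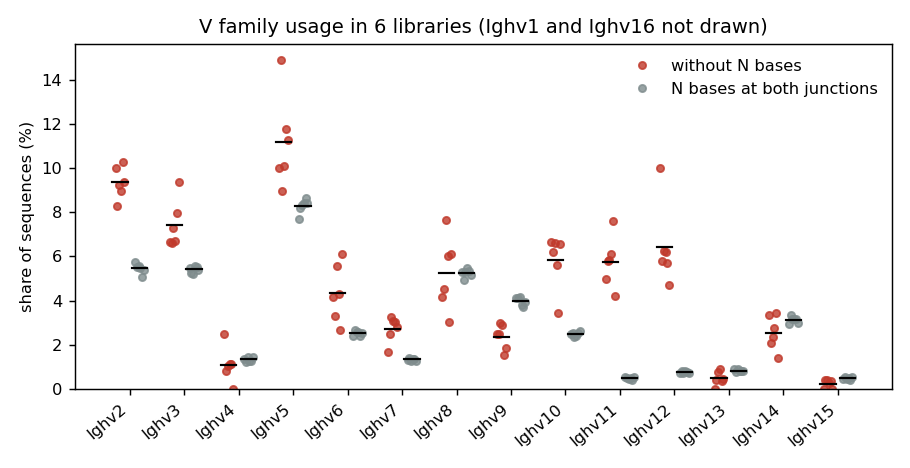
V family shares (%, y axis) among joins without N bases (red) and with N bases at both junctions (grey); each point is 1 of 6 libraries and the black line is their mean. Ighv11 and Ighv12 lie below 0.9% in grey and between 4.2% and 10% in red. Ighv1, at 34.5% and 58.0% over all libraries, and Ighv16, with no members, are not drawn.

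At the level of single V genes, 12 of 97 tested genes were higher in members (12.4%) and 19 lower (19.6%) by the quasi-binomial fit with limma's moderated dispersion at an adjusted p under 0.05. The median log2 odds ratio was -0.55 over all tested genes and -0.92 over 46 Ighv1 genes, of which 43 were negative. Of the 19 lower genes 17 were Ighv1 genes. The number of calls depended on the 5 µg library, which held 1527 of the 3134 members. Without it 4 genes were higher and 0 lower, and without the 2.5 µg library 6 and 5. Each called gene still tested without the 5 µg library kept the sign of its log2 odds ratio. Sizes moved both ways, for instance from -1.24 to -1.76 for Ighv1-69 and from -0.90 to -0.43 for Ighv1-64. The 4 that stayed without the 5 µg library were Ighv11-2, Ighv12-3, Ighv2-6-1 and Ighv10-1, which were called whichever library was left out. The sign-flip test called 0 of the V genes. Its smallest p is 0.03125, and V genes at that value had an adjusted p of 0.111 in this test. After adjustment it could pass only if a large part of the V genes stood there. In the quasi-binomial fit 48 genes had an unadjusted p under 0.05.

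Ighv11-2 (chromosome 12, 114048241 to 114048704 in GRCm38.p6) showed the largest ratio among called genes with a higher share. It ranged from 3.29% to 7.22% of members (median 5.69%) and from 0.237% to 0.40% of comparison joins, without overlap. Over all libraries 180 members gave 5.74% against 0.328%, a ratio of 17.5 (Katz interval 14.8 to 20.6; higher in 6 of 6 libraries; adjusted p = 2.54e-06, quasi-binomial fit with limma). Of all Ighv11-2 joins with a D call, 19.4% lacked N bases, against 1.45% over all V genes. Its members were 25 clones, the largest with 92 sequences, and 170 of 180 used Ighj1.

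Ighv12-3 (114366526 to 114366819) ranged from 4.69% to 10% of members (median 5.95%) and from 0.610% to 0.743% of comparison joins, without overlap. Its 192 members gave 6.13% against 0.685%, a ratio of 8.94 (7.70 to 10.4; adjusted p = 2.54e-06, same fit). They were 42 clones, the largest with 104 sequences. Ighj4 was used by 110 and Ighj1 by 69 of them. Both genes rested largely on clones found in several libraries. Among clones of a single library Ighv11-2 had 20 members and a log2 odds ratio of 1.45, and Ighv12-3 had 35 and 1.12, each with an adjusted p of 0.0664 in that fit by limma.

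Member sequences of these 2 V genes were productive more often than other joins of the same genes. Ighv11-2 was productive in 169 of 180 members (93.9%, Wilson interval 89.4 to 96.6) and in 104 of 552 comparison joins (18.8%, 15.8 to 22.3). Over the libraries the share ranged from 89.0% to 100% in members and from 4.76% to 23.3% in comparison joins. With 1 count per clone it was 15 of 25 clones (60.0%) and 59 of 492 (12.0%). In joins of Ighv11-2 with N bases at the V-D junction only 56.3% were productive, and with N bases at the D-J junction only 25.6%.

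Ighv12-3 was productive in 85.4% of members (79.7 to 89.7) and 11.0% of comparison joins (9.34 to 13.0). The share ranged over libraries from 70.0% to 100% and from 9.23% to 12.0%, and per clone it was 40.5% of 42 and 7.54% of 1088. Of Ighv12-3 joins with N bases at only the V-D junction, 40.8% were productive, and 22.4% of those with N bases at only the D-J junction. For both genes the ranges over libraries did not overlap. These productive shares were examined after their values were seen and have no test. Ighv5-2 (113578504 to 113578990), a D-proximal V gene, was productive in 9 of 93 members and 3.97% of comparison joins. Ighv6-3, by contrast, was productive in 93.7% of members and 80.9% of comparison joins.

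Ighv2-6-1, which the RefSeq table did not place, and Ighv10-1 (114479007 to 114479451) were raised partly through single out-of-frame clones. Ighv2-6-1 made up 0.833% to 3.25% of members (median 2.52%) and 0.282% to 0.339% of comparison joins, a ratio of 8.14 over all libraries (6.48 to 10.2; adjusted p = 4.58e-05, quasi-binomial fit with limma). Of its 83 members 65 were 1 clone. Among clones of a single library 10 remained, with a log2 odds ratio of 0.30 (adjusted p = 0.644, same fit). Ighv10-1 made up 2.5% to 4.69% of members (median 4.04%) and 1.28% to 1.48% of comparison joins, a ratio of 2.90 (2.43 to 3.47; adjusted p = 0.000382). Of its 121 members 34 were 1 clone, and among clones of a single library it kept a log2 odds ratio of 1.31 (adjusted p = 0.0085, same fit).

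Other V genes called higher had ratios of 1.5 to 3.1. Ighv3-5 (114262652 to 114262950) had 15 members and a ratio of 3.05 (1.81 to 5.12), and fell below the expected count of 5, and so was not tested, when any library was left out. Ighv6-3 (114391712 to 114392010; 95 members) had a ratio of 2.14, Ighv5-2 (93 members) 1.85 and Ighv3-6 (114288152 to 114288447; 139 members) 1.53. Ighv7-1 (113896408 to 113896946; ratio 2.75) and Ighv7-3 (114153180 to 114153644; ratio 1.91) carry a pseudogene label in the RefSeq annotation, which was not checked. Yet 267 of 858 comparison joins of Ighv7-1 (31.1%) and 933 of 1266 of Ighv7-3 (73.7%) were flagged productive. Among the most used V genes, Ighv2-2 (113588267 to 113588700; 83 members; ratio 1.43, adjusted p = 0.0517 by the limma-moderated fit) and Ighv8-8 (115294066 to 115294362; 86 members; ratio 1.13) were not called.

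Among genes called lower, Ighv1-26 (114788372 to 114788665) had the most members, 113, at 3.61% against 5.17% of comparison joins. Ighv1-18 (114682632 to 114682925) ranged from 0.826% to 1.88% against 2.5% to 2.65%, and Ighv1-52 (115145487 to 115145780) from 0.458% to 1.17% against 1.85% to 2.08%. Both were lower in every library. Ighv1-69 (115623203 to 115623595; 22 members; ratio 0.428), Ighv1-4 (114487136 to 114487429; 9 members; 0.339) and Ighv1-59 (115335057 to 115335513; 7 members; 0.330) followed. Ighv2-9 (113879097 to 113879388) had 1 member against 824 comparison joins, a ratio of 0.0651 (0.00916 to 0.462), and Ighv1-36 (114879888 to 114880181) 1 against 696. The pseudogene Ighv8-7 (115258139 to 115258432) had 0 of 3134 against 468 comparison joins, at least 2.91-fold lower with 3 counts over the class as the floor. Without the 5 µg library Ighv8-7 was below the expected count and was not tested, and none of the others was called.

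Counts of called V genes differed with the joins compared. Against joins with N bases at the D-J junction only, 5 of 96 tested V genes were higher (5.21%), namely Ighv11-2, Ighv12-3, Ighv2-6-1, Ighv10-1 and Ighv7-1, and 2 were lower (2.08%), Ighv1-52 and Ighv1-18. Among clones of a single library 8 of 90 were higher (8.89%) and 5 lower (5.56%), and 12 of these 13 were also called over all sequences. Among productive joins 12 of 74 were higher (16.2%) and 20 lower (27%). Among non-productive joins 2 of 70 were higher (2.86%), Ighv2-6-1 and Ighv10-1, and 0 lower.

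CDR3 loops of members were shorter than those of comparison joins, whose inserts averaged 4.75 bases at V-D and 3.80 at D-J. Productive members had a mean CDR3 of 33.1 ± 4.92 bases (SD over 2275 sequences; library means 32.7 to 33.5), and productive comparison joins 39.2 ± 6.66 bases (library means 39.1 to 39.3). Since inserts are part of the CDR3, this difference is fixed by the rule and has no test. With inserted bases left out, the germline part over all joins averaged 33.0 bases in members and 30.9 in comparison joins. Members had lost fewer J bases (1.81 against 3.55) and more bases at the D 3′ end (3.79 against 2.93), and had fewer bases aligned to D (10.7 against 11.9). Shared bases are credited to J, which moves bases from the D end to J.

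**Figure D4:**
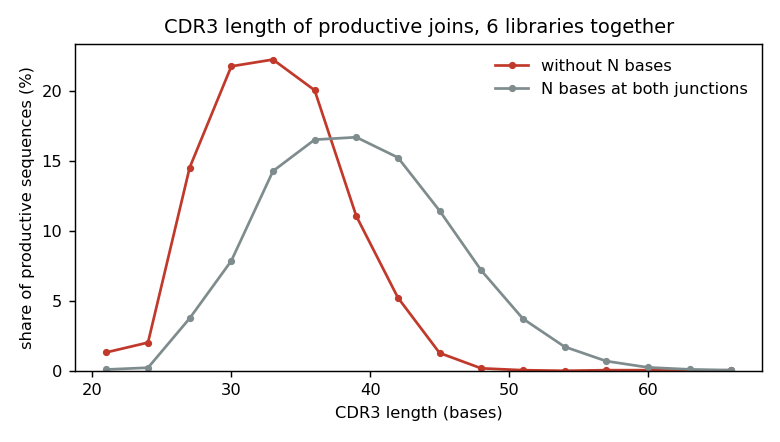
Share of productive sequences (%, y axis) by CDR3 length in bases (x axis, multiples of 3 only), for joins without N bases (red) and with N bases at both junctions (grey), 6 libraries together. The red line is highest at 33 bases, with 22.3%, and the grey line at 39 bases, with 16.7%.

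The productive share was 72.6% in members (Wilson interval 71.0 to 74.1) and 72.2% in comparison joins. It ranged over the libraries from 69.2% to 73.2% and from 71.6% to 73.0%, and the ranges overlapped. The difference of -0.257 ± 1.21 points did not pass the test (SD, n = 6; higher in 3 of 6; p = 0.719, exact sign-flip permutation test). Without Ighv11-2 and Ighv12-3 it was 70.3% against 72.8%, with a difference of -3.25 points that passed (n = 6; adjusted p = 0.0417, same permutation test).

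Parts of the productive share moved in opposite ways. In-frame joins were 75.0% of members and 77.2% of comparison joins, a difference of -2.32 ± 1.31 points (SD, n = 6; 0 of 6 higher; adjusted p = 0.0417, exact permutation test). Stop codons were found in 3.27% of in-frame members and 6.37% of in-frame comparison joins, a difference of -2.56 ± 1.10 points (0 of 6 higher; adjusted p = 0.0417, n = 6, same permutation test). Without sequences mismatched in the last 10 V bases the differences were -2.33 and -2.67 points, each with an adjusted p of 0.0625 in the exact test. Both were still higher in 0 of 6 libraries, with an unadjusted p of 0.03125, the smallest this test can give. The V mismatch share, adjusted together with them, then had an unadjusted p of 0.406 in the same test. When the members were widened to inserts summing to at most 2 bases, the in-frame difference turned to 1.44 points and the productive difference was 2.83 points, both with an adjusted p of 0.03125 in the exact test. At least 1 V mismatch was found in 12.1% of members and 7.48% of comparison joins, and without those sequences in 5.84% and 5.95%.

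Clones of members recurred across libraries more often than clones of comparison joins, a pattern that earlier results of these data already showed and that has no test here. Members formed 2519 clones, of which 104 were in at least 2 libraries (4.13%, Wilson interval 3.42 to 4.98). In comparison joins 1090 of 164518 clones recurred (0.663%, 0.624 to 0.703). With N bases at the D-J junction only the share was 0.808% and with N bases at the V-D junction only 1.05%. Without the 2.5 µg library the share in members was 2.94%. Recurring clones held 21.2% of member sequences, and 93.9% of member clones were seen once.

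The recurring member clones came from 46 V genes and were not only those of Ighv11-2 and Ighv12-3. These 2 genes gave 16 of the 104, and without them 3.59% of member clones recurred, against 0.652% in comparison joins. Of the 104, 88 were productive and 53 used Ighj1. The share was 6.73% for Ighj1 clones and 2.95% for those of other J genes. Among clones with a CDR3 of 30 to 36 bases it was 3.68% in members and 0.710% in comparison joins. Out-of-frame clones recurred in 2.37% and 0.881%.

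**Figure D5:**
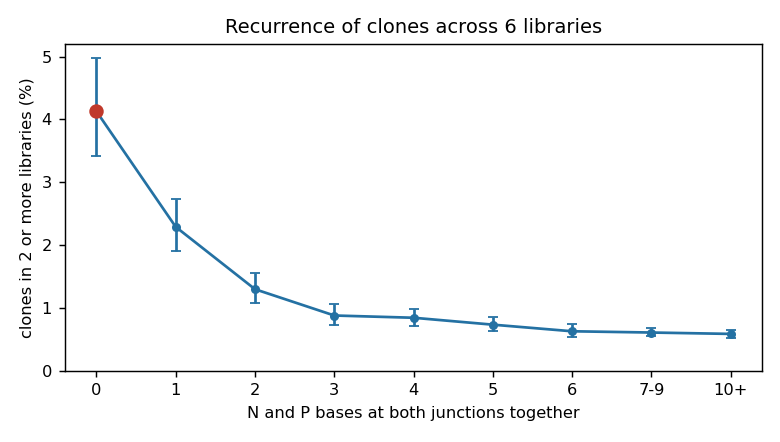
Share of clones found in at least 2 of 6 libraries (%, y axis) by the number of inserted bases at both junctions together (x axis; the last 2 groups are 7 to 9 and at least 10 bases). Points carry Wilson 95% intervals over clones, and the red point marks joins without N bases. The share is 4.13% at 0 bases, 2.29% at 1, 1.30% at 2 and 0.587% at 10 or more.

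The 8 printed clones held 357 sequences, 11.4% of all members, and 6 of them were in all 6 libraries. The Ighv12-3 to Ighj4 clone was found 2, 10, 22 and 54 times in the input libraries from the least to the most DNA, 11 times in Q5_vent and 5 times in Q5_Q5. The Ighv11-2 clone with Ighd2-5 was found 2, 6, 25, 46, 9 and 4 times in the same order. It shares 2 bases between V and D and 4 between D and J. Its D-J stretch was also found in 91 members with 17 other V genes. The printed Ighv2-6-1 clone, with 65 sequences, ends in the same stretch. The D-J stretch of the Ighv12-3 to Ighj4 clone was found in 1 other member.

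The other clones were smaller. The out-of-frame Ighv2-6-1 clone was found 1, 5, 21, 31, 4 and 3 times, and 44.6% of its sequences carried a V mismatch. The out-of-frame Ighv10-1 clone was found 1, 6, 7, 16, 2 and 2 times. The Ighv11-2 clone with Ighd1-1 was found 24 times in all, and its D-J stretch in 177 members with 59 other V genes. The Ighv12-3 to Ighj1 clone was found 15 times, the Ighv1-11 clone 17 times in 5 libraries and the Ighv11-2 clone with Ighd2-1 6 times in 5. Of the 8 clones 5 were productive, 5 used Ighj1 and 4 carried Ighd2-5.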

How the data were processed

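The authors deposited 1 table per library with a row per deduplicated sequence. Per the file headers, a row gives the genes called, the alignment to germline, the CDR3, the productive and frame flags, and NP lengths in bases for the V-D and the D-J junction. Tools listed in the submitters' processing notes are Bowtie2 2.3.2 and Trim Galore 0.4.4, with build mm10. The sources used here do not give how rows were filtered and genes called. Sequences were counted by the first gene of a call with alleles merged. A clone was 1 V gene, J gene and CDR3. RefSeq GRCm38.p6 named 135 of 170 V genes.

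Classes were compared within each library. V families, J genes and productive, frame, stop and mismatch shares were tested with exact two-sided sign-flip permutation tests over 6 libraries. V genes with an expected count of at least 5 were tested with a quasi-binomial model with the library as a block and dispersions moderated with limma 3.58.1 (R 4.3.3), not below 1, which was checked on simulated data. All p-values were adjusted by Benjamini-Hochberg, with a threshold of 0.05. Wilson and Katz 95% intervals cover counting error only, as amplified molecules need not be independent, and pooled shares weigh the 5 µg library most. A count of 0 allows 3 counts of the total.

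V genes named are the 10 most used in members, up to 8 called genes in each direction by size of the log2 ratio, Ighv11-2, Ighv12-3 and Ighv5-2, with every J gene and D family, the 6 most used D genes and 8 clones. The members, lists and tests were chosen with earlier results of these data known. Alternatives were other ways to count clones, single-gene calls, productive or non-productive joins, other length limits, count filters and tests, and leaving out each library. Those chosen after seeing the data were leaving out sequences with mismatches in the last 10 V bases, leaving out Ighv11-2 and Ighv12-3, the quasi-binomial fit for families and J genes, and D gene shares over clones and without the 8 printed clones. Tables were made with pandas 2.3.3, SciPy 1.17.1 and NumPy 2.4.6 in Python 3.11.15, and plots with matplotlib 3.10.9.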

Additional observations from a re-analysis of the deposited data

How the results depend on the processing

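The number of V genes higher in joins without N bases was 12. It was 2 among non-productive joins, 22 with inserts summing to at most 2 bases, 7 without mismatches in the last 10 V bases, 6 with no filter on low counts and 0 by the sign-flip test. The number lower was 19. It was 9 with 1 count per clone, 5 over clones of a single library, 0 among non-productive joins, 5 with D alignments of at least 8 bases, 36 with inserts summing to at most 2 bases, 2 with no filter, 38 with an expected count of at least 10 and 0 by the sign-flip test. With 6 libraries the sign-flip test gives no p below 0.03125, and V genes at that value had an adjusted p of 0.111. In the quasi-binomial fit, leaving out each library gave 4 to 11 genes higher and 0 to 20 lower, the lowest without the 5 µg library. The number of V families past the sign-flip test, 11, fell to 0 with 1 count per clone and over single-library clones. It was also 0 among productive or non-productive joins, with D alignments of at least 8 bases and with inserts summing to at most 2 bases. Without each library it was 0 too, where 5 libraries cannot give a p below 0.0625. With 6 libraries families pass after adjustment only when most of them stand at the smallest p. In the quasi-binomial fit 9 families were higher and 2 lower with 1 count per clone, and 9 and 1 over single-library clones. Among productive joins it called 9 and 4, and among non-productive joins 3 and 3. It called 9 and 2 with D alignments of at least 8 bases, and 10 and 2 with inserts summing to at most 2 bases. The Ighj1 difference of 19.7 points was 16.8 with 1 count per clone, 13.6 over single-library clones and 16.0 among non-productive joins. It was 17.3 with D alignments of at least 8 bases, 15.5 without Ighv11-2 and Ighv12-3, and 19.0 to 20.4 without each library. None of these passed the sign-flip test at 0.05, and all kept the direction. Without a library that test cannot pass. With 6 libraries an Ighj1 p at the smallest value passes after adjustment only if most J genes stand there. The quasi-binomial fit called 1 J gene higher in each of these settings. The productive difference passed in 2 settings, 2.83 points with inserts summing to at most 2 bases and -3.25 points without Ighv11-2 and Ighv12-3. The in-frame difference reversed to 1.44 points with inserts summing to at most 2 bases. The recurring share of 4.13% was 2.12% among non-productive clones, 2.05% with inserts summing to at most 2 bases, 9.39% when the V gene was left out of the clone, and 2.94% to 4.09% without each library. The share of joins without N bases, 1.45%, was 1.26% with 1 count per clone, 1.17% over single-library clones and 1.25% with D alignments of at least 8 bases. The cause of these moves was not tested. Every test compared the classes within libraries, so the library is the pairing throughout.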
